A study of Mus musculus with 5 samples.

Results

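The data are whole-lung RNA sequencing of female wild-type BALB/c mice, and the comparison described here is that of the PM10/OVA library with the PM10 library, 2 of the 5 libraries in all. Mice of the PM10/OVA group received PM10, inhalable airborne particles, and ovalbumin (OVA), a chicken egg protein used as a model allergen. Mice of the PM10 group received the particles alone, and the control group is labelled as untreated. The particles were delivered intranasally in 4 doses within 2 weeks. OVA was first injected into the abdomen and later delivered by the same nasal route, and the animals were killed 2 days following the final challenge. The 2 further libraries come from PM10/OVA mice that were also injected with CPX, named as a chitinase-1 inhibitor (6 times over 3 weeks), or with dexamethasone, a synthetic glucocorticoid (Dex, 3 times in the last week). The sources used here do not give doses, the age of the animals, any sham treatment of the control, or the number of animals behind a library. The comparison asks what differed when an allergen was added to the particles.

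Each group is 1 library, so no difference below has a replicate check, and none was tested. Levels are depth-scaled counts (CPM). The log2 ratio of the 2 libraries was taken on CPM + 1, so differences of low genes come out too small, and a gene counts as higher or lower when it differed at least 2-fold on that scale. Folds of named genes are plain ratios of CPM, with a 95% interval that covers counting error only. Of the 23183 gene symbols in the files, 14305 were measured, meaning that their average over all 5 libraries reached 1 CPM.

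Allergic inflammation of the airway is driven by type 2 cytokines, interleukins 4, 5 and 13, which act on epithelium and macrophages largely through the transcription factor STAT6. They turn airway secretory cells into mucus-producing cells, switch macrophages to an alternatively activated state and draw in eosinophils. Type I and type III interferons act through another set of factors, STAT2 and IRF9 among them, on antiviral genes, many of which carry a short DNA motif, the interferon-stimulated response element, close to their start sites.

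Between PM10/OVA and PM10, 99 genes were at least 2-fold higher (0.692% of the measured genes) and 182 were at least 2-fold lower (1.27%). These shares are to be set beside each count of called genes in a group below. The median log2 ratio of all measured genes was 0.00, and 50.7% lay above 0. Higher in the PM10/OVA library were mucous-cell products, enzymes of alternatively activated macrophages, chemokines that attract eosinophils, monocytes and neutrophils, and neutrophil genes. Lower were genes of the interferon response and of mitosis, together with markers of heart muscle and cartilage, which border the lung. In whole-lung RNA, a change in the number of cells of a type and a change in RNA per cell cannot be told apart. The cell types in the group names come from the lists, and which cells held the RNA was not tested. At the 2-fold threshold, Siglecg was the last gene inside on the higher side, at 6.81 CPM in PM10/OVA and 2.90 CPM in PM10, and Apex1 was the first outside, at 9.90 and 4.47 CPM. On the lower side Slfn9 was the last inside, at 11.5 CPM in PM10/OVA and 24.1 CPM in PM10, and Nr4a1 the first outside, at 54.2 and 109 CPM.

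**Figure D1:**
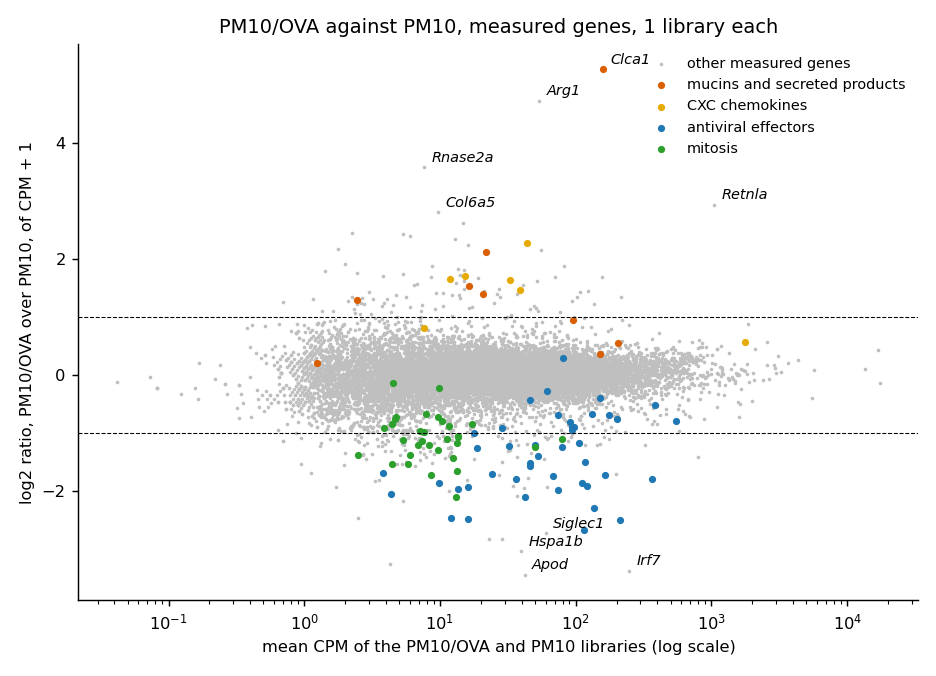
Each point is 1 of 14305 measured genes, with the mean CPM of the PM10/OVA and PM10 libraries on the horizontal log axis and the log2 ratio of PM10/OVA over PM10 (of CPM + 1) on the vertical axis. Dashed lines mark 2-fold; Clca1 and Arg1 lie highest, Apod and Irf7 lowest, and most antiviral effectors (blue) and mitosis genes (green) lie below 0.

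The depth was 16036136 counts in PM10/OVA and 12038105 in PM10, and 11993222 to 16929068 over the 5 libraries. A single count was worth 0.0631 CPM in PM10/OVA and 0.0828 CPM in PM10. The lung identity of both libraries was checked on defining markers. Sftpc, a surfactant protein of alveolar type 2 cells, stood at 13995 CPM in PM10/OVA and 12987 CPM in PM10, and Pecam1, an adhesion molecule of endothelium, at 947 and 909 CPM. Across genes the ratio moved with transcript length, as set out with the plot of ratio by length below the gene groups.

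Among the type 2 cytokines themselves the counts were small. Il4 had 15 counts in PM10/OVA and 2 in PM10, Il5 had 8 and 1, and Il13 had 7 and 2. All these values favour PM10/OVA, but the counting intervals of the Il5 and Il13 ratios run from 0.817 to 270 and from 0.507 to 26.3 and include equality, while that of Il4 runs from 1.33 to 51.5. Il33, an alarmin that epithelial and stromal cells release to start a type 2 response, had 232 CPM in PM10/OVA, 133 CPM in PM10 and 74.0 CPM in control, a 1.74-fold difference between PM10/OVA and PM10 (1.64 to 1.85). None of the 10 measured type 2 cytokine receptors was 2-fold higher or lower, and their median log2 ratio was 0.12. Il4ra, the receptor chain shared by interleukins 4 and 13, stood at 191 CPM in PM10/OVA and 149 CPM in PM10.

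The chemokines of the type 2 response differed more than the cytokines. Of 7 measured ligands 5 were at least 2-fold higher in PM10/OVA, none was lower and the median log2 ratio was 1.42, where 0.692% of all genes were called higher. Ccl11, the eosinophil attractant eotaxin, had 27.3 CPM in PM10/OVA, 4.97 CPM in PM10 and 4.90 CPM in control, which makes it 5.48-fold higher in PM10/OVA than in PM10 (4.18 to 7.31). Ccl24, a second eotaxin made largely by macrophages, had 9.78 CPM in PM10/OVA, 0.994 CPM in PM10 and 2.25 CPM in control (9.84-fold, 5.47 to 19.4). For both eotaxins the PM10 library was near or below control, and PM10/OVA stood apart from both. Ccl17, which attracts Th2 cells through the receptor CCR4, was instead graded, with 14.1 CPM in PM10/OVA, 4.64 CPM in PM10 and 1.10 CPM in control. Ccl8, a ligand of CCR8 in the mouse, showed the same order at 69.3, 29.9 and 1.5 CPM, and Ccl7, a ligand of CCR2 and CCR3 on monocytes and eosinophils, was 6.25-fold higher in PM10/OVA than in PM10 (4.55 to 8.79). Of the 2 measured receptors, Ccr3, the eosinophil chemokine receptor, was called higher, with 18.1 CPM in PM10/OVA, 6.38 CPM in PM10 and 7.50 CPM in control. Ccr4, the receptor of Ccl17, lay on the other side, with 1.70 CPM in PM10/OVA, 4.14 CPM in PM10 and 1.38 CPM in control, and was not called.

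Mucous-cell products were higher in PM10/OVA. Of 9 measured mucins and secreted products 5 were at least 2-fold higher, against 0.692% of all measured genes. All 9 lay above 0 and the median log2 ratio was 1.30. Clca1 (GRCm38 chromosome 3, 145004537 to 145032776, protein-coding), a secreted protease of mucous cells that acts on mucus, had 313 CPM in PM10/OVA, 7.12 CPM in PM10 and 1.61 CPM in control, and was 43.9-fold higher in PM10/OVA than in PM10 (35.5 to 55.0). The mucin genes themselves differed less. Muc5ac, the gel-forming mucin induced in allergic airways, had 30.6 CPM in PM10/OVA, 11.0 CPM in PM10 and 4.09 CPM in control (2.78-fold, 2.29 to 3.39), whereas Muc5b, the mucin made at rest, had 169, 131 and 140 CPM. Fcgbp, which is bound into mucus, was 4.81-fold higher in PM10/OVA than in PM10 (3.85 to 6.07). Tff2, a trefoil peptide secreted with mucus, was 3.13-fold higher (2.49 to 3.95), and Itln1, a lectin, 3.93-fold (2.10 to 8.02). For Fcgbp the PM10 library lay below control, with 36.3 CPM in PM10/OVA, 7.54 CPM in PM10 and 19.8 CPM in control. Between PM10 and control, 4 of the 9 products were at least 2-fold lower in PM10 and 2 were higher. Together the 9 had 950 CPM in PM10/OVA, 398 CPM in PM10 and 692 CPM in control.

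In the machinery behind the mucus, 2 of 13 measured genes of folding, glycosylation and transport were called. Agr2, a disulfide isomerase needed to fold mucins, had 26.1 CPM in PM10/OVA and 3.40 CPM in PM10, 7.67-fold higher (5.56 to 10.8). Slc26a4, the anion exchanger pendrin, which sets the airway surface liquid, had 90.7 CPM in PM10/OVA, 19.6 CPM in PM10 and 1.04 CPM in control, so that it differed between PM10 and control as well. Spdef, a transcription factor that drives mucous differentiation, had 3.78 CPM in PM10/OVA and 1.82 CPM in PM10 and was below the threshold. None of the 6 mucous transcription factors passed it. Levels of mucous products in PM10/OVA were not the top of the series. Clca1 had 5154 CPM in PM10/OVA/CPX and 1633 CPM in PM10/OVA/Dex, against the 313 CPM in PM10/OVA, and the 9 products together had 6790, 3419 and 950 CPM in the same order.

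Enzymes and secreted proteins of alternatively activated macrophages were the other large group. Of 12 measured, 7 were at least 2-fold higher in PM10/OVA, against 0.692% of all measured genes. All 12 lay above 0 and the median log2 ratio was 1.41. Arg1, arginase, which breaks down arginine and is a classic STAT6 target, had 104 CPM in PM10/OVA, 2.98 CPM in PM10 and 2.54 CPM in control, a 35.0-fold difference between PM10/OVA and PM10 (25.2 to 50.2). The PM10 and control values were close, and Arg1 stood at 10.6 CPM in PM10/OVA/CPX and 5.63 CPM in PM10/OVA/Dex. The group as a whole did not share this fall in the treated libraries. The 12 genes together had 10118.5 CPM in PM10/OVA/CPX, 4394 CPM in PM10/OVA/Dex and 3996 CPM in PM10/OVA. Their median levels were 54.9, 36.3 and 50.7 CPM in the same order. Retnla, the secreted resistin-like molecule FIZZ1, had 1857 CPM in PM10/OVA, 242 CPM in PM10 and 23.7 CPM in control, so that PM10 lay between the others. Chil4, a chitinase-like lectin, had 56 counts in PM10/OVA and 0 in PM10. It was 14.2-fold higher with 3 counts taken for the PM10 library (the exact lower limit is 11.2). Chil3, its close relative, was 1.65-fold higher (1.59 to 1.71), and reads of the 2 genes may not be fully separated.

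Alox15, a lipoxygenase of eosinophils and alternatively activated macrophages, was 3.91-fold higher in PM10/OVA than in PM10 (3.04 to 5.09). Il4i1, a secreted amino acid oxidase induced by interleukin 4, was 2.77-fold higher (2.33 to 3.30). Of 14 surface molecules and regulators 2 were higher, the scavenger receptor Cd163 (24.4 CPM in PM10/OVA and 10.3 CPM in PM10) and Pdcd1lg2, the PD-1 ligand PD-L2 (4.10 and 1.16 CPM), and 1 was lower, the transcription factor Klf4 (104 and 219 CPM). None of these 3 had a counting interval wholly past 2-fold. Chia1, the acidic chitinase, had 157 CPM in PM10/OVA, 57.9 CPM in PM10 and 79.9 CPM in control.

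The promoter of Retnla is shown because STAT6 is known to act on this gene. The stretch lies on the plus strand of GRCm38.p6 (RefSeq, chr16:48842439-48842508), from 170 to 101 bases before the start site, and capitals mark a match to the letters TTCNNNNGAA, which read the same on both strands.
Retnla: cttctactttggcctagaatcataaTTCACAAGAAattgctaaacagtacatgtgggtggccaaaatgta
In windows of 250 bases before annotated start sites, these letters stood in 12 of 79 windows of genes at least 2-fold higher (15.2%), in 6 of 151 windows of genes at least 2-fold lower (3.97%) and in 634 of 13757 windows of all measured genes (4.61%). A match is a description of the letters and not a binding site, and genes can have more than 1 window.

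Of 4 measured eosinophil granule genes 2 were called higher, Prg2 and Ear6, and 2 lay below 0. Together the 4 had 141 CPM in PM10/OVA, 153 CPM in PM10 and 111 CPM in control, most of it from the ribonuclease Ear2, with 101 CPM in PM10/OVA and 102 CPM in PM10. The called genes were at low levels, and with a pseudocount of 5 CPM neither was called. Prg2, the major basic protein of the granule, had 44 counts in PM10/OVA and 1 in PM10, a ratio of 33.5 with a counting interval of 5.71 to 1353. Epx, eosinophil peroxidase, had 1 and 0 counts, so a defining marker was at the floor in both libraries. Of the granule ribonucleases, Ear6 was 7.51-fold higher in PM10/OVA than in PM10 (3.45 to 19.4), while Ear1 had 33.6 CPM in PM10/OVA and 50.4 CPM in PM10, and reads of these related genes may be shared. Rnase2a, another ribonuclease of the family and not in the list, had 237 counts in PM10/OVA and 4 in PM10, 45.1-fold higher (17.4 to 167). Of the basophil genes, Mcpt8, a basophil protease, had 47 counts in PM10/OVA and 3 in PM10, a ratio of 11.9 (3.84 to 59.9). Mcpt8 averaged below 1 CPM over the 5 libraries, so it was not among the measured genes. Ms4a2, the beta chain of the IgE receptor, had 3.85 and 1.08 CPM and was called. It was not called under a pseudocount of 5 CPM or with the counting interval required to lie wholly past 2-fold. None of the 6 measured mast cell and basophil proteases was called, and Cma1, a mast cell chymase, had 3.60 CPM in PM10/OVA, 2.65 CPM in PM10 and 6.46 CPM in control.

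Chemokines that attract neutrophils were higher in PM10/OVA, on top of a level in PM10 that was already above control. Of 7 measured CXC chemokines 5 were at least 2-fold higher, against 0.692% of all measured genes. All 7 lay above 0 and the median log2 ratio was 1.64. Cxcl5, an epithelial ligand of the receptor CXCR2, had 73.4 CPM in PM10/OVA, 14.4 CPM in PM10 and 0.231 CPM in control (5.09-fold between PM10/OVA and PM10, 4.34 to 6.01). Cxcl1 had 23.8, 6.63 and 0.577 CPM and Cxcl2 had 18.5, 5.22 and 0.115 CPM in the same 3 libraries. Cxcl3 had 57.7, 20.3 and 0.173 CPM. These 4 CXCR2 ligands thus had one order, PM10/OVA, PM10, control. Cxcl15, a chemokine made at high level by lung epithelium, differed less, with 2107 CPM in PM10/OVA and 1421 CPM in PM10. Csf3, the growth factor G-CSF for neutrophils, had 18 counts in PM10/OVA and 0 in each of PM10 and control. With 3 counts taken for the PM10 library it was 4.57-fold higher, and the exact lower limit is 3.35. Il17a had 4 counts in PM10/OVA and 0 in PM10.

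**Figure D2:**
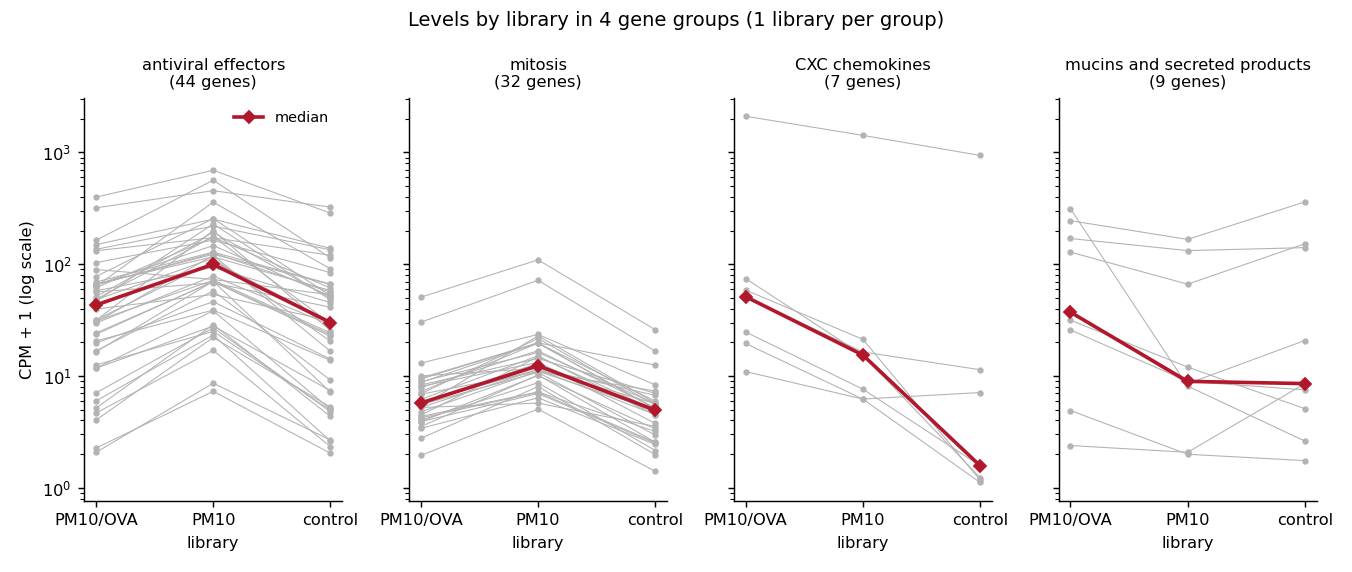
Levels (CPM + 1, log axis) in the PM10/OVA, PM10 and control libraries for 4 gene groups; each grey line is 1 gene and the red line joins the group medians. Antiviral effectors and mitosis genes peak in PM10 (median 98.8 and 11.3 CPM, against 42.1 and 4.73 CPM in PM10/OVA), CXC chemokines and mucous products are highest in PM10/OVA.

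The neutrophil genes followed. Of 16 measured genes of neutrophil cytosol, surface and recruitment 8 were at least 2-fold higher in PM10/OVA, against 0.692% of all measured genes. None was 2-fold lower, and the median log2 ratio was 0.96. S100a8 and S100a9, the pair that forms calprotectin, the main cytosolic protein of neutrophils, were 3.78-fold (3.40 to 4.21) and 3.25-fold (3.02 to 3.51) higher. S100a8 stood at 130 CPM in PM10/OVA, 34.5 CPM in PM10 and 33 CPM in control, so that PM10 was near control. Cxcr2, the chemokine receptor, had 53.9, 19.9 and 10.5 CPM, and Csf3r, the G-CSF receptor, 104, 48.5 and 25.4 CPM. Of 6 measured granule genes Mmp9, a gelatinase, was called, at 40.4 CPM in PM10/OVA and 13.8 CPM in PM10.

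Cytokines of the list of interleukin 1, interleukin 6 and TNF were partly higher, with 4 of 11 measured called and a median log2 ratio of 0.60. Of the 11, 3 lay below 0, the lowest at -0.68. Il1b had 133 CPM in PM10/OVA, 54.4 CPM in PM10 and 16.5 CPM in control, and Il1rn, its natural antagonist, 190, 80.9 and 7.73 CPM. Il6 had 58 counts in PM10/OVA and 10 in PM10 (4.42-fold, 2.24 to 9.69), and Osm, oncostatin M, was 3.37-fold higher (2.19 to 5.37). Il1f9, interleukin-36 gamma under its older symbol and not part of the 11, had 21.6 CPM in PM10/OVA, 5.38 CPM in PM10 and 1.73 CPM in control. The enzymes of classical inflammation did not share the difference. Irg1, which makes itaconate, had 49.0 CPM in both PM10/OVA and PM10 and 0.115 CPM in control, Nos2, inducible nitric oxide synthase, had 13.2, 12.1 and 8.42 CPM, and Ptgs2, cyclooxygenase 2, had 39.2, 41.3 and 18.6 CPM.

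Monocyte attractants were higher as well, while the surface genes called lay on both sides. In the list of 27 measured monocyte and interstitial macrophage genes 6 were higher and 2 lower, and the median log2 ratio was -0.13. The 6 were Ccl2, Ccl3, Ccl4, Ccl7, Ccl12 and Cd14, the endotoxin co-receptor. Ccl7 was also among the type 2 chemokine ligands called above. Ccl2, the main CCR2 ligand, had 23.2 CPM in PM10/OVA, 6.88 CPM in PM10 and 0.922 CPM in control. The 2 lower genes were Fcgr1, the high-affinity receptor for IgG (18.7, 47.3 and 7.09 CPM), and Ly6c2, a surface marker of inflammatory monocytes (42.7, 89.5 and 40.9 CPM). Both are also known to respond to interferon.

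Acute phase proteins and adhesion molecules of activated endothelium were partly higher. Of 15 acute phase genes 5 were called, with a median log2 ratio of 0.60. Hpx, which binds haem, had 14.3 CPM in PM10/OVA, 3.15 CPM in PM10 and 0.577 CPM in control, and Orm1, an acute phase glycoprotein, had 20.6, 7.62 and 4.50 CPM. Serpina3n, a protease inhibitor, had 311, 123 and 17.6 CPM. Timp1, an inhibitor of matrix proteases, had 108, 32.6 and 2.36 CPM. Of 11 adhesion genes Selp and Sele, the P- and E-selectins that catch rolling leukocytes, were called. Selp had 22 CPM in PM10/OVA, 5.96 CPM in PM10 and 4.61 CPM in control, and Sele was 5.08-fold higher in PM10/OVA than in PM10 (2.94 to 9.41). Icam1, which leukocytes bind for firm arrest, had 478 and 422 CPM and Vcam1 121 and 109 CPM. Selp is stored in platelets too, and beside it Pf4, the platelet chemokine, had 50.3 CPM in PM10/OVA and 15.4 CPM in PM10. The 9 measured platelet genes summed to 147 CPM in PM10/OVA, 76.1 CPM in PM10 and 78.9 CPM in control, and the part of platelets in the Selp difference was not tested.

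The interferon response was lower in PM10/OVA. Ordered by role, none of the 5 measured ligands and receptors was called (median log2 ratio 0.04), against 6 of 15 nucleic acid sensors lower (median -0.95), 3 of 11 transcription factors and feedback genes (-0.82), 29 of 44 antiviral effectors (-1.45), 3 of 17 GTPases (-0.85) and 0 of 4 genes of the CXCR3 axis (-0.70). Over all measured genes 1.27% were called lower, and in these roles none was called higher. The interferon genes themselves gave little to compare. Ifnb1, Ifna4, Ifnl2 and Ifnl3 had 0 counts in both libraries, which allows up to 0.189 CPM in PM10/OVA and 0.249 CPM in PM10, and Ifng had 5 counts in PM10/OVA and 6 in PM10. The receptor chain Ifnar1 had 126 CPM in PM10/OVA and 122 CPM in PM10.

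Irf7 (GRCm38 chromosome 7, 141263183 to 141266499, protein-coding), the master regulator that amplifies type I interferon, had 42.6 CPM in PM10/OVA, 452 CPM in PM10 and 26.9 CPM in control, and was 10.6-fold lower in PM10/OVA than in PM10 (9.77 to 11.5). In PM10/OVA/CPX it had 43.5 CPM and in PM10/OVA/Dex 23.9 CPM, so that PM10 was the one library of the 5 far above the others. Usp18, a feedback inhibitor of the interferon receptor, had 24.9, 97.7 and 16.4 CPM in PM10/OVA, PM10 and control. Stat2, a subunit of the factor that binds the response element, had 59.5, 127 and 47.5 CPM, and its partner Irf9 (64.2, 114 and 56.0 CPM) missed the threshold. Irf1, which interferon gamma induces, had 124 CPM in both PM10/OVA and PM10. Of the sensors, Zbp1, which senses Z-form nucleic acid, was 3.56-fold lower in PM10/OVA than in PM10 (3.12 to 4.07), Dhx58, a regulator of RNA sensing, 2.94-fold (2.52 to 3.45), and Ifih1, the RNA sensor MDA5, 2.03-fold (1.88 to 2.21). Tmem173, the adaptor STING, stood on the other side of 0, with a log2 ratio of 0.27.

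The antiviral effectors had the lowest median and the most called genes of these roles, while the lowest single ratio was that of Irf7. Isg15, a ubiquitin-like modifier, had 29.3 CPM in PM10/OVA, 119 CPM in PM10 and 15.6 CPM in control, with 21.1 CPM in PM10/OVA/CPX and 8.75 CPM in PM10/OVA/Dex. Ifi44, an interferon-induced protein of the cytoplasm, had 30.4, 199 and 24.4 CPM in PM10/OVA, PM10 and control, 6.54-fold lower in PM10/OVA than in PM10 (5.93 to 7.23). Mx2, of the dynamin-like GTPase family, was 6.98-fold lower (5.11 to 9.71), with 3.03 CPM in PM10/OVA against 21.1 CPM in PM10. RefSeq annotates Mx2 as a transcribed pseudogene. The PM10/OVA values were near control for Ifi44 and Mx2 and above it for Isg15. The oligoadenylate synthetases, which set off RNA decay, and their relatives were 3.48-fold (Oasl1) to 5-fold (Oasl2) lower among the 6 listed. Of these, Oas3 had 15.5 CPM in PM10/OVA, 69.4 CPM in PM10 and 6.17 CPM in control. Ifit1, Ifit2 and Ifit3, which bind foreign RNA, were 3.68-fold (3.39 to 4.01), 2.87-fold (2.66 to 3.10) and 3.81-fold (3.51 to 4.13) lower. Bst2, tetherin, which holds budding virus at the membrane, had 76.5, 255 and 51.3 CPM. Ifitm1, which blocks virus entry, was the 1 gene of the 44 above 0, with 88.7 CPM in PM10/OVA and 72.0 CPM in PM10. The 44 genes together had 2491 CPM in PM10/OVA/CPX, 2033 CPM in PM10/OVA/Dex, 2674 CPM in PM10/OVA, 6062 CPM in PM10 and 2237 CPM in control, so that PM10 stood alone. Oas, Ifit, Apol9 and Slfn genes have close relatives, and the sources used here do not say how reads that fit several were counted.

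Set side by side, the median log2 ratio of the 44 effectors was -1.45 for PM10/OVA over PM10, 1.70 for PM10 over control and 0.32 for PM10/OVA over control. These comparisons share libraries and are not independent.

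Promoter stretches of 4 genes of this group are shown because their response elements can be read directly. Isg15 and Irgm1 lie on the minus strand, Ifit1 and Gbp3 on the plus strand of GRCm38.p6 (RefSeq), at chr4:156200859-156200928, chr11:48871421-48871490, chr19:34640769-34640838 and chr3:142559974-142560043 in that order. The last 28 bases shown for Gbp3 lie inside the RefSeq gene, which has an earlier start. Each is written 5′ to 3′ along its gene. Capitals mark matches to GAAANNGAAA on either strand, so that a match to the other strand shows as its reverse complement, and where matches overlap the capitals run on.
Isg15: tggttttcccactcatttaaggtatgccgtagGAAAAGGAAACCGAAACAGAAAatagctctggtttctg
Irgm1: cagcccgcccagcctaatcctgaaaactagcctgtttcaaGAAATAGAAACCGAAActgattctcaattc
Ifit1: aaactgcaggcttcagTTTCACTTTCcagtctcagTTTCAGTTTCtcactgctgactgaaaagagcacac
Gbp3: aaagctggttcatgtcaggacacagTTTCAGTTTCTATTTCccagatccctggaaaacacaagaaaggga
The letters stood in 18 of 45 windows of antiviral effectors (40.0%), in 9 of 10 windows of the GTPases (90.0%), in 30 of 151 windows of genes at least 2-fold lower (19.9%) and in 3 of 79 windows of genes at least 2-fold higher (3.80%). Over all measured genes they stood in 378 of 13757 windows (2.75%). RefSeq windows were found for 36 of the 44 effectors and 9 of the 17 GTPases. The effectors and GTPases are interferon genes by how the lists were made, so these shares describe the lists and not a cause of the difference.

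The GTPases, which attack the vacuoles of microbes and are induced mostly by interferon gamma, were lower by less. Gbp3 had 70.0 CPM in PM10/OVA, 163 CPM in PM10 and 61.9 CPM in control, and Irgm1 had 54.1, 121 and 41.1 CPM. All 17 lay below 0, from -1.21 to -0.06. Cxcl9 and Cxcl10, the interferon-induced ligands of CXCR3 on T cells, behaved differently from the effectors in their PM10/OVA level. Cxcl10 had 14.3 CPM in PM10/OVA, 25.2 CPM in PM10 and 1.27 CPM in control, and Cxcl9 had 15.5, 18.4 and 0.980 CPM, so that both stayed well above control in PM10/OVA.

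**Figure D3:**
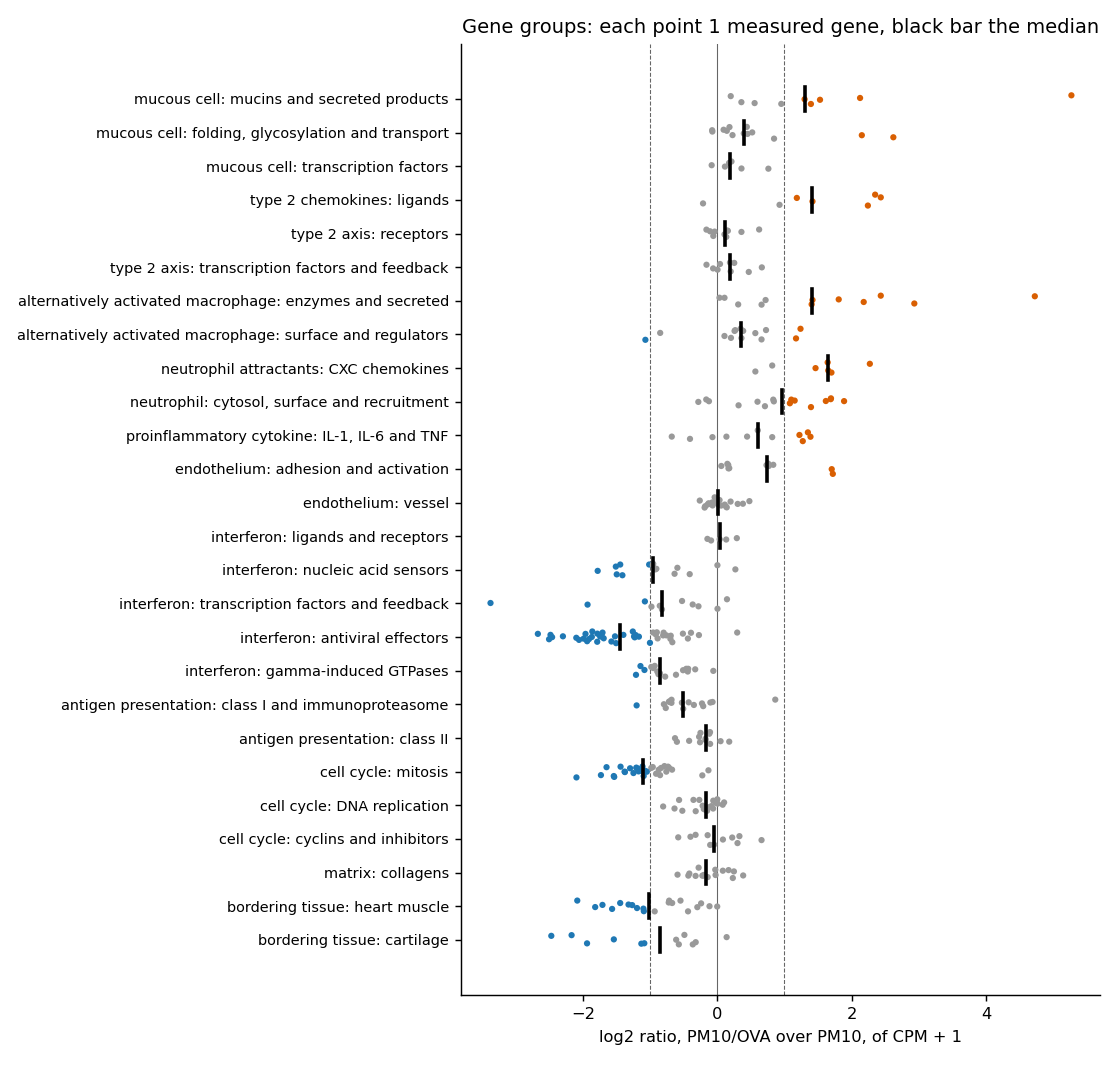
Log2 ratio of PM10/OVA over PM10 (of CPM + 1) for each measured gene of 26 gene groups; black bars are medians, dashed lines mark 2-fold, orange points are at least 2-fold higher and blue points at least 2-fold lower. The medians run from -1.45 (antiviral effectors) to 1.64 (CXC chemokines).

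Of the 29 measured genes of antigen presentation 1 was called lower, where 1.27% of all genes were, and 26 lay below 0, with a median log2 ratio of -0.27. Of 16 class I and immunoproteasome genes 1 was called, H2-T23, a non-classical class I gene, with 195 CPM in PM10/OVA and 450 CPM in PM10, and the median log2 ratio was -0.52. B2m, the shared light chain of class I, had 1205 CPM in PM10/OVA, 1982 CPM in PM10 and 942 CPM in control. The 13 class II genes had a median of -0.17 with none called, and Cd74, the invariant chain, had 1434 and 1543 CPM. Related H2 genes may share reads.

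Genes of mitosis were lower in PM10/OVA, and genes of DNA replication much less so. Of 32 measured mitosis genes 19 were at least 2-fold lower, against 1.27% of all measured genes. All 32 lay below 0, and the median log2 ratio was -1.10. Of 21 replication genes none was called, 17 lay below 0, and the median was -0.17. Mki67, the proliferation antigen Ki-67, had 49.7 CPM in PM10/OVA, 108 CPM in PM10 and 25 CPM in control, and Top2a, which untangles chromosomes, had 29.3, 70.8 and 15.7 CPM. Cenpf, a kinetochore protein, was 5.02-fold lower in PM10/OVA than in PM10 (3.84 to 6.65), at 4.35 CPM against 21.9 CPM. Both libraries were above control for Mki67 and Top2a, while Cenpf in PM10/OVA was near its control value of 4.73 CPM. Aspm, at the spindle poles, was 3.99-fold lower (2.92 to 5.51), Prc1, which bundles the midzone of the spindle, 3.49-fold (2.74 to 4.48), and Foxm1, a transcription factor for mitotic genes, 2.65-fold (1.93 to 3.67).

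The helicase gene Mcm2 had 33.3 CPM in PM10/OVA, 33.1 CPM in PM10 and 21.3 CPM in control, and Mcm5, of the same helicase, had 42.1, 44.0 and 16.7 CPM. Pcna, the sliding clamp, had 110, 111 and 78.5 CPM. Mcm2, Mcm5 and Pcna were level between PM10/OVA and PM10 and above control in both. The lowest log2 ratio of the 21 replication genes was -0.80. Many mitosis genes were at a few CPM, so the count of 19 depends on the threshold. With the counting interval required to lie wholly past 2-fold it was 10, and with a pseudocount of 5 CPM it was 6. In the other libraries the 32 genes summed to 269 CPM in PM10/OVA/CPX and 183 CPM in PM10/OVA/Dex, against 234 CPM in PM10/OVA, 543 CPM in PM10 and 152 CPM in control.

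Stretches of the promoters of Prc1 and Ckap2l, a spindle protein 2.74-fold lower in PM10/OVA than in PM10 (2.09 to 3.61), are shown because mitosis genes are known for a cell cycle homology region near the start site. Each holds 70 bases before a RefSeq start site, on the plus strand at chr7:80294396-80294465 and on the minus strand at chr2:129297213-129297282 of GRCm38.p6. Both genes also have an earlier start, so the last 21 bases shown for Prc1, its TTTGAA among them, and the last 16 for Ckap2l lie inside the RefSeq gene. Capitals mark TTTGAA on either strand (TTCAAA on the other).
Prc1: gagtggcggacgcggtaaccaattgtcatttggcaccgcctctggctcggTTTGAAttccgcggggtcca
Ckap2l: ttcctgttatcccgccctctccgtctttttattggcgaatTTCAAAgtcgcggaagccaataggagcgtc
TTTGAA stood in 9 of 28 mitosis windows (32.1%), in 2 of 19 replication windows (10.5%) and in 1491 of 13757 windows of all measured genes (10.8%). CCAAT, the box of the factor NF-Y, did not part the groups, with 22 of 28 mitosis windows (78.6%) and 15 of 19 replication windows (78.9%), against 34.3% of all windows. Among all called genes TTTGAA stood in 18 of 79 windows of those higher (22.8%) and in 38 of 151 windows of those lower (25.2%).

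Of the 20 measured heat shock genes 2 were lower in PM10/OVA, and they stood far below the rest. Hspa1a and Hspa1b, near-identical inducible chaperones of the HSP70 family whose reads may not be separable, had 6.31 and 7.82 CPM in PM10/OVA, 50.7 and 71.7 CPM in PM10, and 36.7 and 44.4 CPM in control. They had 6.23 and 9.34 CPM in PM10/OVA/CPX but 136 and 188 CPM in PM10/OVA/Dex. The lowest and the highest of the 5 values of each gene were thus both in libraries given OVA. The list of heat shock genes had a median log2 ratio of 0.01, and no other was called. Of 21 immediate early genes, which respond within minutes to handling and stress, the nuclear receptor Nr4a2 and Klf4 were called lower. The median was -0.35, and 1.27% of all measured genes were called lower. Neither Nr4a2, 2.48-fold lower (1.81 to 3.42), nor Klf4, 2.11-fold lower (1.98 to 2.24), had a counting interval wholly past 2-fold. Of the core clock genes Per1, which also answers to glucocorticoids, was lower, at 91.9 CPM in PM10/OVA, 212 CPM in PM10 and 154 CPM in control. The 9 clock output genes had a median of -0.68 with none called, and the sources used here do not give the hour of death.

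Markers of some tissues that border the lung differed too. None was called among 14 fat genes (median log2 ratio -0.30), 5 skeletal muscle genes (-0.18) and 9 mesothelium genes (0.14). Heart muscle genes, which whole-lung RNA can hold from the sleeves of pulmonary veins or from attached heart, were lower in PM10/OVA in 10 of 20. Over all measured genes 1.27% were called lower, and the median log2 ratio of the heart muscle genes was -1.01. They summed to 423 CPM in PM10/OVA, 922 CPM in PM10 and 4085 CPM in control. Myh6, the atrial and ventricular myosin, had 92.3 CPM in PM10/OVA, 304 CPM in PM10 and 1182 CPM in control, and Nppa, the atrial peptide, had 1.07, 4.64 and 595 CPM. Of 12 cartilage genes 6 were lower, with a median of -0.85. The 12 summed to 25.1 CPM in PM10/OVA, 46.6 CPM in PM10 and 242 CPM in control, so that several passed the filter of 1 CPM on average through the control library. With the filter on PM10/OVA and PM10 alone 3 were called lower, and with a pseudocount of 5 CPM 1 was. Col10a1 had 1 count in PM10/OVA and 59 in PM10, a ratio of 77.5 with a counting interval of 13.4 to 3111. Col2a1 had 0 and 23 counts, 10.1-fold lower in PM10/OVA with 3 counts taken for that library. The part of these tissues in the other differences was not tested.

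Groups with small differences included the cells that make up most of the lung. The median log2 ratio was 0.09 for 18 alveolar type 2 genes, 0.08 for 14 type 1 genes, -0.04 for 16 club and secretory genes, -0.11 for 19 ciliated genes and 0.01 for 20 vessel genes, with none called in these roles. T cell identity genes had a median of -0.01 over 16, and Cd3e, a chain of the receptor complex, had 9.27 CPM in PM10/OVA and 8.61 CPM in PM10. B cell genes lay higher, with a median of 0.53 over 12 and none called. Alveolar macrophage markers had a median of -0.14 over 20. Of the 16 collagens in the matrix list, which leaves out those of cartilage described above, none was called. Col1a1, of the main fibrous collagen, had 371 CPM in PM10/OVA, 495 CPM in PM10 and 292 CPM in control. The 23 ligands, receptors and effectors of the TGF-beta pathway had a median of -0.18 with none called. Genes of the respiratory chain lay above 0 in 41 of 41 and ribosomal proteins in 47 of 48, at medians of 0.32 and 0.26, and both are families of short transcripts.

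The ratio of PM10/OVA to PM10 fell with transcript length. Across 13781 genes with an annotated length Spearman's rho was -0.33, given as a description since genes of the same pair of libraries are not independent. With genes split into 5 equal groups by length, the median log2 ratio was 0.14 in the group with the shortest transcripts and -0.13 in the group with the longest. Of the genes at least 2-fold higher 52 were in the shortest group and 5 in the longest, whereas the genes at least 2-fold lower were spread, with 32 and 28. For PM10 over control rho was -0.07 and for PM10/OVA over control -0.31, so the trend went with the PM10/OVA library. With this trend removed the respiratory chain median was 0.13 and the ribosomal median 0.15. The antiviral effectors then had -1.46, the mitosis genes -1.07, the CXC chemokines 1.45, the mucous products 1.15 and the macrophage enzymes 1.24. The type 2 chemokine ligands went from 1.42 to 1.14, with 4 called higher in place of 5.

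**Figure D4:**
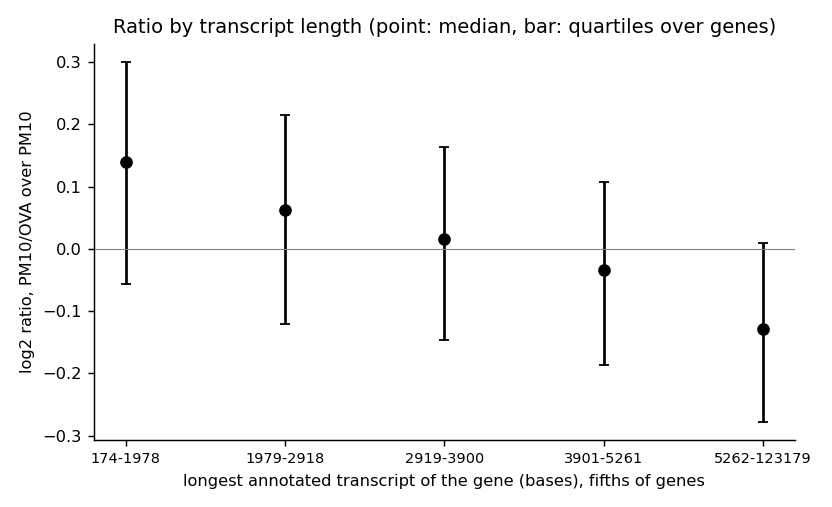
Median log2 ratio of PM10/OVA over PM10 (points) with quartiles over genes (bars) in 5 equal groups of genes ordered by the length of their longest annotated transcript. The median is 0.14 in the shortest group and -0.13 in the longest.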

How the data were processed

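The authors deposited 1 table of raw counts for each library, with whole numbers of reads for every gene symbol. Libraries were strand-specific (NEBNext Ultra II Directional, from Trizol-extracted RNA, per the labels' protocols). TopHat and the mm10 build are named in the submitters' processing notes, and the sources used here do not give the counting tool, annotation or strand setting. Antisense, overlapping and near-identical genes are therefore uncertain. Counts were scaled to CPM with TMM factors over the 5 libraries (edgeR 4.0.16), and genes were kept where the average of these reached 1 CPM. Log2 ratios use a pseudocount of 1 CPM. Intervals are exact conditional (Clopper-Pearson) 95% intervals of the ratio of counts, and with 0 counts the floor is 3 counts, both for counting error only. Nothing was tested, since each group has 1 library. Transcript lengths are from GENCODE M21, coordinates and promoter windows (250 bases before the start site) from RefSeq (GRCm38.p6), and lengths matched 96.3% of measured genes.

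The 39 gene lists, split into 81 roles, hold 1161 symbols, of which 1134 were in the files (2 under a synonym) and 1044 were measured. Members and lists were chosen with earlier results of these data known. Lists can share genes, so the counts of different groups are not all separate. The genes named came mainly from the 15 highest and 15 lowest ratios (predicted models, small RNAs and antigen receptor segments left out). They came also, per role described, from the called members, up to 6 with the largest ratio and the first 4 as listed. Not every gene in these sets was named, and in the large roles most called members were not. The interval and ratio code was checked on simulated counts.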

Additional observations from a re-analysis of the deposited data

How the results depend on the processing

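No paired analysis was possible because each group has 1 library, and for the same reason no replicate could be left out. The count of genes at least 2-fold higher was 99, and 173 with a pseudocount of 0.25 CPM or 54 with 5 CPM. The count of genes at least 2-fold lower was 182, and 308 or 78 with these pseudocounts, and 115 when the whole counting interval had to lie past 2-fold. Under the same interval rule the neutrophil cytosol, surface and recruitment genes called higher numbered 5 in place of 8. The mitosis genes called lower numbered 10 in place of 19 under that rule and 6 with a pseudocount of 5 CPM. Under the interval rule 0 in place of 2 immediate early genes were called, 0 in place of 3 surface genes of alternatively activated macrophages and 3 in place of 5 acute phase genes. With a pseudocount of 5 CPM the genes called numbered 1 in place of 6 for cartilage, 5 in place of 10 for heart muscle, 0 in place of 2 for eosinophil granules and 2 in place of 4 for interleukin 1, interleukin 6 and TNF cytokines. With the filter on the 2 compared libraries 3 cartilage genes were called, and 2 with a mean of at least 5 CPM. With a pseudocount of 0.25 CPM the GTPases called lower numbered 5 in place of 3. With the length trend removed the nucleic acid sensors called lower numbered 3 in place of 6. A pseudocount and an interval weigh low genes differently by construction.

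The other scalings (DESeq2 size factors, library totals, TMM over the 2 libraries), the filters and the length trend, and leaving out predicted and clone models, an alternative chosen after seeing the data, moved neither of the 2 overall counts by more than 1.5 times. Of 440 further values of list counts (40 counts under 11 alternatives), 396 were within 1.5 times the reported count. Of 102 genes named past 2-fold, every one kept its direction under the 6 alternatives that give a ratio, and 77 (pseudocount 5 CPM) to 102 stayed past 2-fold. Library totals moved the median log2 ratio of all genes to -0.01. Depth limits the genes of a few counts, such as Il5, Il13, Epx and Prg2.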

Other observations

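Of the 281 genes past 2-fold, 61 of the higher and 89 of the lower ones belonged to a list, 5 and 12 were predicted or clone models, and 33 and 81 remained. The genes named here were picked from those after their values were seen. All 7 measured Serpina3 genes, a cluster of protease inhibitors on chromosome 12, were at least 2-fold higher in PM10/OVA than in PM10, with a median log2 ratio of 1.27, where 0.692% of all genes were called higher. Serpina3i had 29.7 CPM in PM10/OVA, 8.61 CPM in PM10 and 3.34 CPM in control. Serpina3h, which RefSeq annotates as a transcribed pseudogene, had 181, 65.9 and 22.3 CPM. The members are close relatives and may share reads, so they are not 7 separate values.

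Col6a5, a chain of collagen VI, was 10.6-fold higher in PM10/OVA than in PM10 (6.75 to 17.7). It had 17.6 CPM in PM10/OVA, 1.66 CPM in PM10 and 2.19 CPM in control. None of the 16 collagens in the matrix list was called, whereas Col10a1 and Col2a1, in the cartilage list, were lower. Gpr84, a receptor for medium-chain fatty acids on myeloid cells, had 8.77, 1.91 and 0.115 CPM in the same libraries. Cd209e, a lectin related to DC-SIGN, had 59 counts in PM10/OVA and 3 in PM10, a ratio of 15 (4.88 to 74.7). Rmrp, the RNA of a ribonuclease complex, had 10.8 CPM in PM10/OVA and 1.24 CPM in PM10.

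On the lower side, Apod, a lipid-binding apolipoprotein, had 6.25 CPM in PM10/OVA, 77.9 CPM in PM10 and 22.3 CPM in control, 12.5-fold lower in PM10/OVA than in PM10 (10.1 to 15.5). Siglec1, a sialic acid receptor of macrophages known to respond to interferon, had 15 CPM in PM10/OVA, 105 CPM in PM10 and 17.7 CPM in control. Ly6i, a surface protein of the Ly6 family, had 4.98, 41.3 and 0.519 CPM, so its PM10/OVA level stayed above control. Ly6e, of the same family, had 435, 1158 and 405 CPM, and Ddx60, a helicase of the antiviral response, 13.8, 54.8 and 13.7 CPM. Klrk1, the activating receptor NKG2D of natural killer and T cells, had 6.75 CPM in PM10/OVA, 17.5 CPM in PM10 and 9.17 CPM in control, while the 12 cytotoxic and natural killer genes had a median log2 ratio of -0.02.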
